A study of Mus musculus with 8 samples.

Results

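The 26 genes described here carry out or control the synthesis of cholesterol: 20 enzymes of the pathway and its isoprenoid branch, 4 regulators of the sterol response and 2 transport genes. They were taken by gene symbol from a list of pathway genes, with 1 probe set per gene, the one with the highest mean over all arrays. Of the 26, 25 were measured and all 25 passed the filter on dim genes, out of 13587 genes tested and 19411 genes with a probe set; Acat2 was not analysed here. RNA of C57/Bl6 mice was hybridised to Affymetrix gene arrays, 1 array per sample. Sperm from the caudal epididymis came from males on a control diet (3 arrays), a low protein diet (2 arrays) and a caloric restriction diet (1 array), and epididymal tissue came from a control and a low protein diet (1 array each). Males of the control and low protein diets were 9 to 12 weeks old; no age is stated for caloric restriction. Nothing in the labels says that arrays of a diet came from separate animals or which part of the epididymis the tissue arrays hold. The series asked whether the diet of males goes along with differences in the RNA of their sperm. Levels are log2 intensities, on which a difference of 1 is a factor of 2.

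Cells build cholesterol from acetyl-CoA. The mevalonate steps make isoprenoid units, squalene is formed from them and closed to lanosterol, and a last series of enzymes in the endoplasmic reticulum turns lanosterol into cholesterol. When membrane sterol is low, Scap carries the transcription factor SREBP-2, the product of Srebf2, out of the endoplasmic reticulum, and cleaved SREBP-2 turns the pathway on; Insig1 and Insig2 hold Scap back when sterol is high. Sperm lose membrane cholesterol during capacitation, and spermatids are known to transcribe Cyp51.

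Because SREBP-2 is known to act on promoters together with the factor NF-Y, the promoters of the members were read from RefSeq (GRCm38.p6). A window of 250 bases before the start was searched on both strands for TCACNCCAC (sterol response element), CCAAT (NF-Y), CACGTG (E-box) and TGACGTCA (cAMP response element); none of these overlapped another in the windows shown. The promoter table matched 21 members, and Fdft1, Fdps, Npc1, Sqle and Stard4 were not among them. CCAAT was found for 19 of the 21, all but Acat2 and Scap, against 39.0% of the tested genes with a window and 37.5% of all 27025 genes of the table. The E-box letters were found for 5 of 21 (Dhcr7, Hsd17b7, Insig1, Sc5d and Scap), against 9.5% of tested genes and 6.86% of all genes. The sterol response element letters were found for 1 of 21, Hmgcs1, against 1.3% and 1.22%, and those of the cAMP response element for 0 of 21, against 2.9% and 1.77%. These are exact matches of fixed letters and say nothing of binding. An element spelled with other letters was not looked for, so a missing match does not show that the element is missing. The windows of 6 genes whose levels were lower in sperm than in epididymis, and of Pmvk, the single member that was higher, are shown 5′ to 3′ on the strand of the gene, with matches in capitals (ATTGG is CCAAT on the other strand).
Hmgcs1, chr13:119690101-119690350, plus strand: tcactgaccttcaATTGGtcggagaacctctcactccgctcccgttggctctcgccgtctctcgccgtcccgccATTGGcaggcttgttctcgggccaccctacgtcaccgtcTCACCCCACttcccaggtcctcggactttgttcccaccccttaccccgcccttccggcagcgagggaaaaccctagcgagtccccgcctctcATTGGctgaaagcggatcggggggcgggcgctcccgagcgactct
Idi1, chr13:8885356-8885605, plus strand: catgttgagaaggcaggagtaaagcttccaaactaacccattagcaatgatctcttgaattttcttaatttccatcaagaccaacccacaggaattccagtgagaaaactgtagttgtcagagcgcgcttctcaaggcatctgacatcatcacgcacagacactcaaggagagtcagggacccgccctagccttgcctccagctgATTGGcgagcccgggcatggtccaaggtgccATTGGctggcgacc
Cyp51, chr5:4104698-4104947, minus strand: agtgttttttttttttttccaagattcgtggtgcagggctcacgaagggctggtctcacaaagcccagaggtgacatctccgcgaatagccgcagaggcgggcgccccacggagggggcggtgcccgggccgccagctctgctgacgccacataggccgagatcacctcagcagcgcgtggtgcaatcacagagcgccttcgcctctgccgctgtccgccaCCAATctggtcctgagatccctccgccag
Msmo1, chr8:64733579-64733828, minus strand: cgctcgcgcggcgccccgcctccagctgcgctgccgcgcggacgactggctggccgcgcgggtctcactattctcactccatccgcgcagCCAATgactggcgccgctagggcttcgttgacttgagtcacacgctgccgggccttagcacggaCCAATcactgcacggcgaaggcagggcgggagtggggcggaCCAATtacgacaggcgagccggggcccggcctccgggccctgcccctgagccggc
Nsdhl, chrX:72918271-72918520, plus strand: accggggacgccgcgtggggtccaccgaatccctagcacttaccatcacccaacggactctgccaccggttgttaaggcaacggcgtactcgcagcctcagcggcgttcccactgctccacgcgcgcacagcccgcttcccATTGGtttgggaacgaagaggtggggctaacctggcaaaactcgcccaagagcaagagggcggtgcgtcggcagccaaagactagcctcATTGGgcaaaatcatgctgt
Insig1, chr5:28071162-28071411, plus strand: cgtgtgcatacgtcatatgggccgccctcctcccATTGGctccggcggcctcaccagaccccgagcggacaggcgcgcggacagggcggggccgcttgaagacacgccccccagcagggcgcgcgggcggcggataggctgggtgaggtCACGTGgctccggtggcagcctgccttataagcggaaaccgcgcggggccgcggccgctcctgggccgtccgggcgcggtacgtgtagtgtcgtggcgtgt
Pmvk, chr3:89454291-89454540, plus strand: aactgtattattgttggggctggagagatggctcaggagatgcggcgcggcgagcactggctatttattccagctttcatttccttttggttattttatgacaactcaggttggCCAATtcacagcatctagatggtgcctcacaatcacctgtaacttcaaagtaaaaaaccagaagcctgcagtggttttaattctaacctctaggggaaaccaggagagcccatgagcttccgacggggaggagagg
Msmo1 held 3 CCAAT matches, starting 160, 96 and 55 bases before the start, and Hmgcs1 held 3 beside its sterol response element match. Pmvk held a match as well, 136 bases before the start, so the letters did not separate the member that was higher in sperm from those that were lower.

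**Figure D1:**
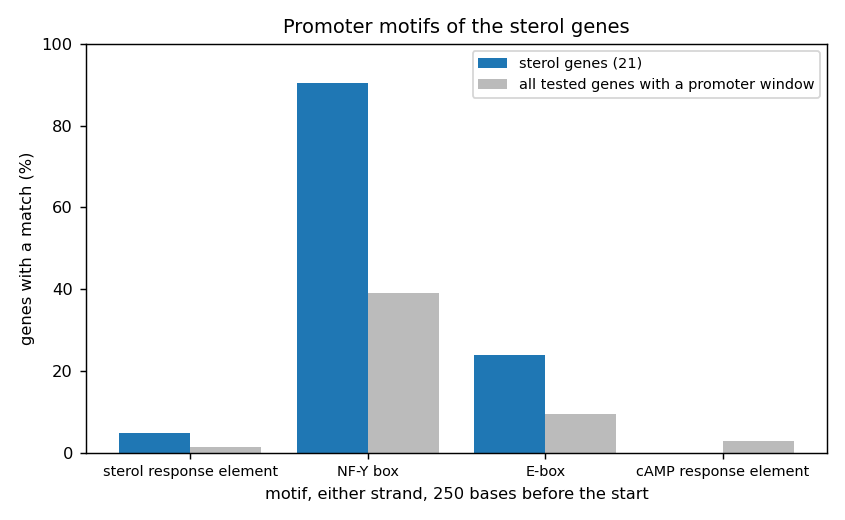
Share of genes with a match to each motif, on either strand, in the 250 bases before the start. Blue bars are the 21 sterol genes with a window and grey bars all tested genes with a window; the NF-Y bar reaches 90.5% for the sterol genes and 39.0% for the tested genes.

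Facts of the whole series bear on every value below. The 8 array medians over all probe sets lay between 6.08 and 6.17, and no pair of arrays held the same values. Low protein replicate 2 stood apart: its correlation with the other sperm arrays was 0.71 to 0.86 across tested genes, while the other 5 had values among themselves of 0.85 to 0.98. The labels of tissue went with the sperm, smooth muscle and most epithelial markers, but not with leukocyte markers. All 29 late spermatid and sperm genes tested were higher in sperm, and all 15 smooth muscle genes and 14 of 19 epididymal epithelium genes were lower. Of the fibroblast and matrix markers 12 of 13 were lower, and of the endothelium markers 4 of 7. Of 14 leukocyte markers 0 were called lower and 1 higher, with a median difference of -0.02. In these bulk samples, fewer cells of a type and less RNA per cell cannot be told apart.

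Most sterol genes were lower in sperm than in epididymis, in every role from mevalonate synthesis to transport. Of 25 members, 21 fell and 1 rose at an adjusted p under 0.05 by limma, where the tested genes gave 30.1% lower and 18.4% higher. The median difference over the members was -1.17 on the log2 scale, against -0.08 over all genes tested, and 24 of 25 members were below 0 (54.3% of genes). For 21 members all 6 sperm arrays lay below both epididymis arrays (35.6% of tested genes did so), and for Pmvk all 6 lay above (24.8%). Each difference comes from limma over 8 arrays with tissue and diet as terms. Since caloric restriction has a single array and its own coefficient, the tissue effect rests on 5 sperm and 2 epididymis arrays.

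**Figure D2:**
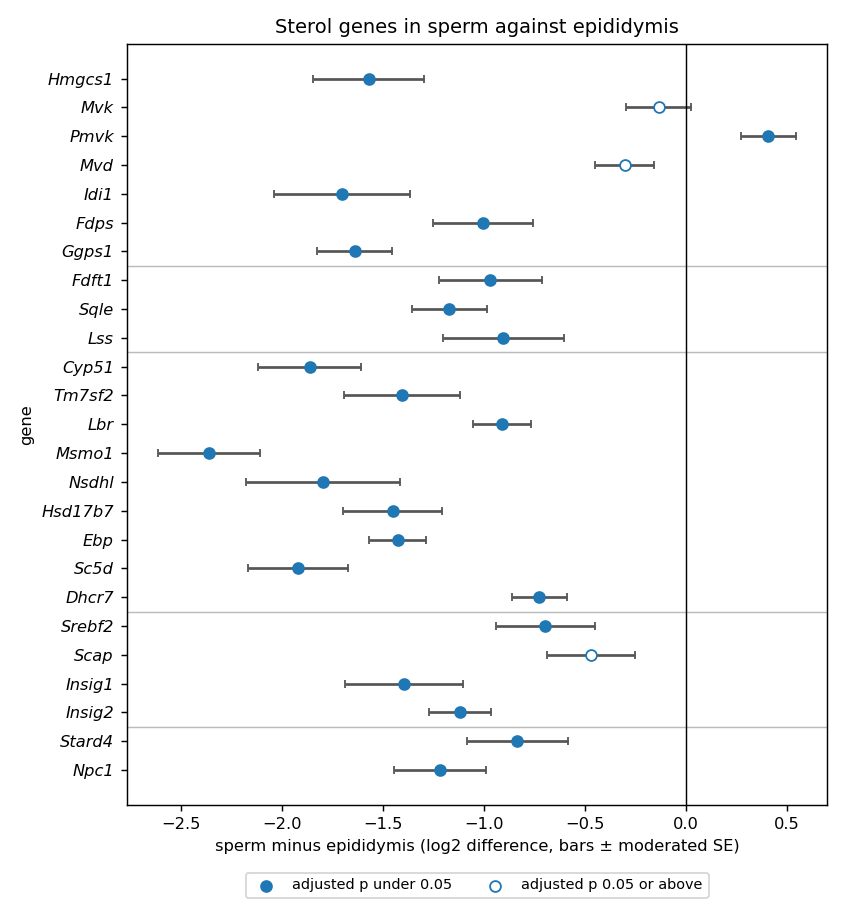
Difference between sperm and epididymis for each measured sterol gene (log2 difference, x axis) with its moderated standard error. Filled points passed an adjusted p of 0.05. Grey lines part mevalonate and isoprenoid genes, squalene to lanosterol, lanosterol to cholesterol, regulators and transport; Msmo1 lies lowest at -2.36 and Pmvk alone lies above 0.

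The mevalonate steps were split. Hmgcs1, the synthase that makes HMG-CoA, read 7.30, 7.80 and 7.83 in control sperm, 7.27 and 6.39 in low protein sperm, 7.09 in caloric restriction sperm, and 8.90 and 8.75 in control and low protein epididymis. Every sperm array was thus below both tissue arrays, and the gene fell by 1.57 ± 0.27 (SE; adjusted p by limma 0.00202). Idi1, the isomerase that interconverts the isoprenoid units, read 7.81, 8.25 and 7.89 in control sperm, 7.53 and 6.29 in low protein sperm, 7.51 in caloric restriction sperm, and 9.25 and 9.10 in the tissue. It fell by 1.70 ± 0.34 (adjusted p by limma 0.00357). Its 2 probe sets gave like values, with control sperm minus control epididymis at -1.27 and -1.25. Fdps, which joins the units to farnesyl diphosphate, fell by 1.01 ± 0.25, and Ggps1, which lengthens it for protein prenylation, fell by 1.64 ± 0.19.

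The 3 enzymes between HMG-CoA and the isoprenoid units behaved otherwise. Mvk, mevalonate kinase, read 6.88 to 7.30 in sperm and 7.10 and 7.26 in epididymis, so the tissues overlapped, and the difference was -0.14 ± 0.16 (95% interval -0.50 to 0.23; adjusted p by limma 0.504), with 0.02 after quantile normalization and 0.04 after cyclic loess. Mvd, mevalonate diphosphate decarboxylase, differed by -0.30 ± 0.15 (adjusted p by limma 0.115), and by 0.05 after cyclic loess. Pmvk, phosphomevalonate kinase, which acts between them, read 6.99, 6.87 and 6.85 in control sperm, 7.04 and 7.17 in low protein sperm, 6.70 in caloric restriction sperm, and 6.52 and 6.67 in the tissue. All 6 sperm arrays lay above the tissue, the caloric restriction array by the least. Pmvk rose by 0.41 ± 0.13 (adjusted p by limma 0.0340); the call was lost in 8 of 19 other settings, and the difference stayed between 0.34 and 0.53 in all 19.

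From squalene to lanosterol all 3 genes fell. Sqle, the squalene epoxidase, read 7.79, 7.99 and 8.18 in control sperm, 7.50 and 7.18 in low protein sperm, 7.78 in caloric restriction sperm, and 8.92 and 8.78 in epididymis. It fell by 1.17 ± 0.18. Fdft1, squalene synthase, fell by 0.97 ± 0.26, and its second probe set gave control sperm minus control epididymis of -1.36 beside -0.96 for the first; its call was lost in 4 of the 19 other settings. Lss, the cyclase that makes lanosterol, fell by 0.90 ± 0.30, with adjusted p by limma 0.0350; its call was lost in 7 of the 19 other settings.

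All 9 genes from lanosterol to cholesterol fell, and their median difference was -1.45. Msmo1, the sterol C4 methyl oxidase, showed the largest difference of all members: it read 8.32, 8.88 and 8.99 in control sperm, 8.29 and 7.70 in low protein sperm, 8.11 in caloric restriction sperm, and 10.80 and 10.69 in epididymis. The gap was wider than the spread within either tissue, and the gene fell by 2.36 ± 0.25, or 5.14-fold (adjusted p by limma 1.9e-04). Sc5d, which places the C5 double bond, fell by 1.92 ± 0.25. Cyp51, the lanosterol demethylase, read 6.75, 7.10 and 7.54 in control sperm, 6.52 and 6.06 in low protein sperm, 6.81 in caloric restriction sperm, and 8.66 and 8.53 in epididymis. It fell by 1.86 ± 0.25.

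Nsdhl, the X-linked sterol dehydrogenase of C4 demethylation, read 8.25, 8.76 and 8.69 in control sperm, 8.17 and 6.71 in low protein sperm, 7.87 in caloric restriction sperm, and 9.90 and 9.76 in epididymis. Low protein replicate 2 was far below the other sperm arrays for this gene, and the difference between tissues was -1.80 ± 0.38. Hsd17b7, the ketoreductase of the same reaction, fell by 1.45 ± 0.25, Ebp, the sterol isomerase, by 1.43 ± 0.14 and Tm7sf2, a C14 reductase, by 1.41 ± 0.29. Lbr, the lamin B receptor, which also is a C14 reductase, fell by 0.91 ± 0.14. Dhcr7, which makes cholesterol in the last step, fell by 0.73 ± 0.13.

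Among the regulators, the Insig genes fell more than the genes of the factor they restrain, a description of separate differences that was not tested. Insig1, itself a target of the sterol response, read 8.86, 9.18 and 9.35 in control sperm, 8.93 and 7.85 in low protein sperm, 8.19 in caloric restriction sperm, and 10.23 and 10.12 in epididymis. It fell by 1.40 ± 0.29. Insig2 read 6.46 to 6.91 in sperm, 7.76 and 7.77 in epididymis, and fell by 1.12 ± 0.15. Srebf2 read 8.33, 8.46 and 8.88 in control sperm against 8.93 and 8.96 in epididymis, so control replicate 3 came close to the tissue. It fell by 0.70 ± 0.25 (adjusted p by limma 0.0443), a call lost in 8 of 19 other settings. Scap differed by -0.47 ± 0.22 (adjusted p by limma 0.105), and control replicate 3, at 8.59, lay between the tissue arrays at 8.60 and 8.46. The transport genes Npc1, which exports cholesterol from lysosomes, and Stard4, a cytosolic sterol carrier, fell by 1.22 ± 0.23 and 0.84 ± 0.25; the call of Stard4 was lost in 5 of 19 other settings.

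**Figure D3:**
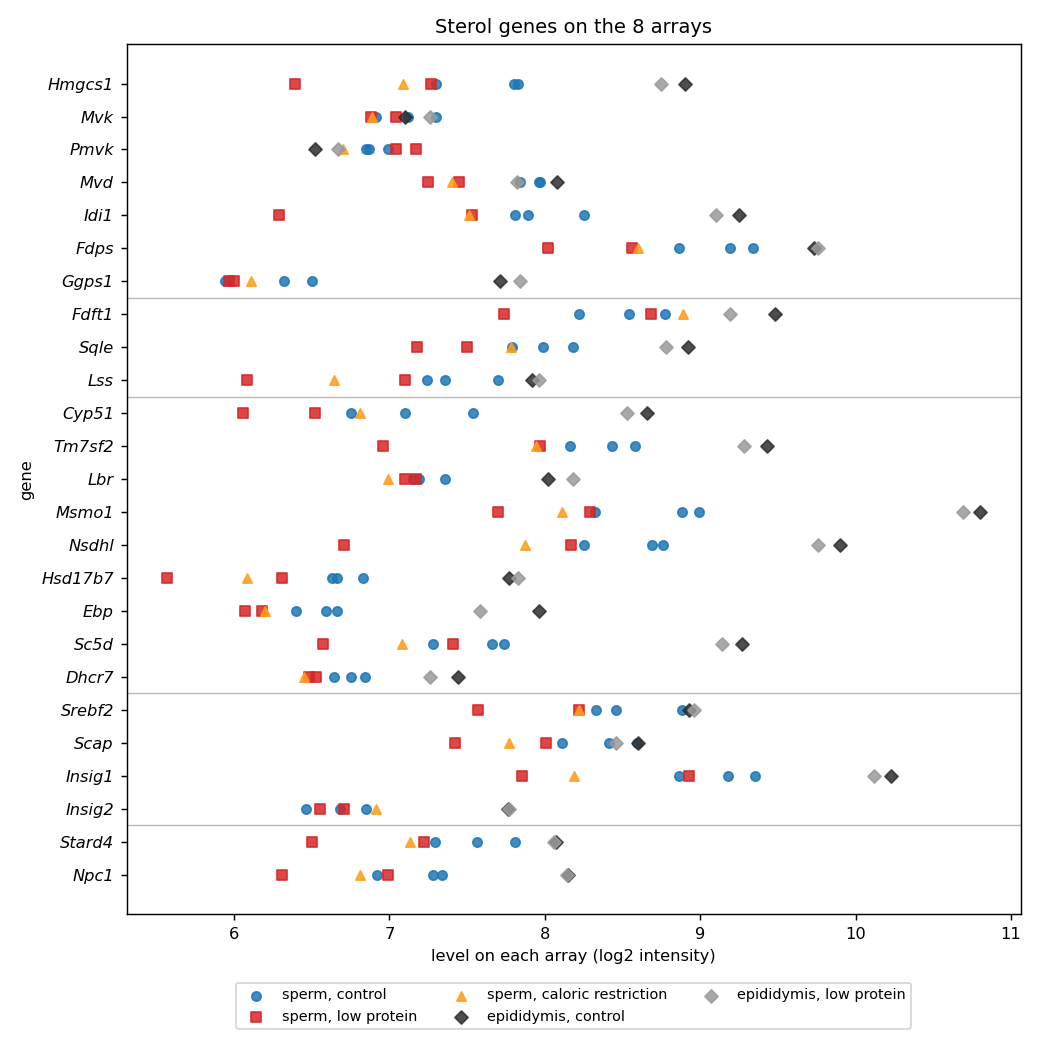
Level of each measured sterol gene on every array (log2 intensity, x axis), 1 point per array, coloured by tissue and diet; grey lines part the roles. For 21 genes the 2 epididymis points lie right of all 6 sperm points, for Pmvk they lie left, and for Mvk, Mvd and Scap they mix. Levels of different genes come from different probes and are not comparable.

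The number of calls depended on the arrays. Without the low protein epididymis array 11 members were called lower (12.5% of tested genes), with the control array as the only tissue sample, and with other single arrays left out the count ran from 18 to 21. After quantile normalization it was 16 and after cyclic loess 17. Without low protein replicate 2 it was 21.

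Other genes of sterol handling, from lists chosen beside the members, moved both ways. The shares of all tested genes in this comparison, 30.1% lower and 18.4% higher, apply to each list. Of 17 further sterol pathway genes tested, 9 fell and 2 rose. Pgrmc1, a heme-binding partner of Cyp51, fell by 2.00 ± 0.38. Stard6, a sterol carrier of germ cells, rose by 3.95 ± 0.22 and Rnf139, a ubiquitin ligase of the endoplasmic reticulum, by 1.89 ± 0.18. Of 14 isoprenoid branch genes 6 fell and 1 rose, of 17 oxysterol and efflux genes 10 fell and 1 rose, and of 19 fatty acid synthesis genes 11 fell and 2 rose. The desaturase gene Scd2 fell by 2.30 ± 0.40 and the transporter gene Abca1 by 1.43 ± 0.23. Of 9 genes for factors of the sterol and cAMP response, a list that counts Srebf2, 4 fell and 3 rose. Crem, the cAMP response factor of spermatids, rose by 1.80 ± 0.24, Sp1 rose by 1.02 ± 0.18 and the NF-Y subunit gene Nfyb fell by 1.23 ± 0.26.

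Expressed as a share of the control epididymis array, the median sterol gene stood at 42.5%, 52.7% and 55.5% in control sperm, at 43.2% and 29.9% under low protein and at 41.2% under caloric restriction. Over all genes tested these medians were 94.6%, 95.1% and 97.4%, 91.3% and 91.2%, and 90.2%. Single genes spread widely around the median: in control sperm Msmo1 stood at 23.9%, Sc5d at 30.5%, Cyp51 at 34.5% and Nsdhl at 39.6% of the control tissue, but Srebf2 at 77.3%, Scap at 85.5%, Mvd at 89.9%, Mvk at 101% and Pmvk at 130%. Markers of the epididymal epithelium, for which 34 of 37 genes were measured and 19 tested, had medians of 44.6%, 51.9% and 52.0% in control sperm, 38.5% and 21.1% under low protein and 34.0% under caloric restriction. Those of smooth muscle, with 15 of 16 measured and tested, had 17.7%, 19.1% and 15.9%, then 11.3% and 9.37%, then 13.7%. Those of fibroblasts and matrix, with 13 tested, had 39.0%, 35.9% and 59.7%, then 43.9% and 26.4%, then 47.0%. Leukocyte and endothelium markers stood higher than the sterol genes on all 6 sperm arrays, and the muscle markers lower. Of these lists, the epithelial markers lay nearest the sterol genes on the control arrays. On the low protein and caloric restriction arrays the fibroblast and matrix markers lay nearest. What part RNA of any of these cells has in the sterol signal of sperm was not tested.

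Under the low protein diet, sperm had lower values than control sperm for 24 of 25 sterol genes, but no gene passed the test. The median difference over the members was -0.65 on the log2 scale, against -0.06 over all genes tested, where 56.5% of genes were below 0. Limma called 0 of 25 members (0% of tested genes were called in either direction), while 16 members had an unadjusted p under 0.05 with lower values, against 13.1% of tested genes. Adjusted p-values by limma for the members were all 0.111 or more. For 16 members both low protein arrays lay below all 3 control arrays, against 22.4% of tested genes, and for Pmvk both lay above (18.8%).

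Nsdhl differed most, by -1.12 ± 0.39 (adjusted p by limma 0.157), followed by Idi1 at -1.08 ± 0.34 and the reductase gene Tm7sf2 at -0.93 ± 0.29. Tm7sf2 read 8.16, 8.43 and 8.58 in control sperm and 7.97 and 6.96 in low protein sperm. The groups did not overlap, but low protein replicate 1 lay close to the lowest control and replicate 2 far below it. Lss read 7.24, 7.36 and 7.70 against 7.10 and 6.08, a difference of -0.84 ± 0.30. Fdps read 8.86, 9.19 and 9.34 against 8.56 and 8.02, a difference of -0.84 ± 0.23, and had the smallest adjusted p of the members (0.111 by limma). Mvd, which was not called between the tissues, read 7.97, 7.96 and 7.84 against 7.45 and 7.25, a difference of -0.57 ± 0.16 (adjusted p by limma 0.118). Both low protein arrays lay well below a narrow control range of 0.12.

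Other members showed little difference under low protein. Insig2 differed by -0.03 ± 0.18, Lbr by -0.10 ± 0.16, Mvk by -0.15 ± 0.18, Dhcr7 by -0.24 ± 0.16 and Ggps1 by -0.27 ± 0.20. Fdft1 differed by -0.30 ± 0.29, with 8.68 in replicate 1 inside the control range of 8.22 to 8.77 and 7.74 in replicate 2 below it. Insig1 and Srebf2 differed by -0.74 ± 0.31 and -0.66 ± 0.25. After cyclic loess Insig2, Lbr and Fdft1 were above 0, at 0.04, 0.05 and 0.05, and after quantile normalization Insig2 was at 0.04.

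The 2 low protein arrays were unequal. Set against the mean of the controls, the median sterol gene was at -0.34 in replicate 1 and at -0.99 in replicate 2. Replicate 2 was the lowest of the 6 sperm arrays for 20 of 25 members, against 33.9% of tested genes. With replicate 2 left out, the median difference was -0.34, Nsdhl differed by -0.39, Idi1 by -0.46 and Fdft1 by 0.17, and 0 members were called. With replicate 1 left out the median was -0.99 and 18 members were called lower, against 22.9% of tested genes lower and 15% higher, where the remaining array was taken to vary as the controls do. Replicate 1 alone lay below all 3 controls for 17 members (36.9% of tested genes) and replicate 2 for 21 (42.5%).

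Control sperm arrays also differed from each other in a common direction. Replicate 1 was the lowest control for 20 of 25 members (42.4% of tested genes) and replicate 3 the highest for 16 (38.7%). Set against the mean of the other 2 controls, the median sterol gene was at -0.35 in control replicate 1, at 0.08 in replicate 2 and at 0.27 in replicate 3. Control replicate 1 thus lay as far below its fellow controls as low protein replicate 1 lay below the control mean, though these references differ. Against the mean of all 3 controls, which includes control replicate 1, the mean over the members was -0.19 in control replicate 1. It was -0.30 in low protein replicate 1.

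**Figure D4:**
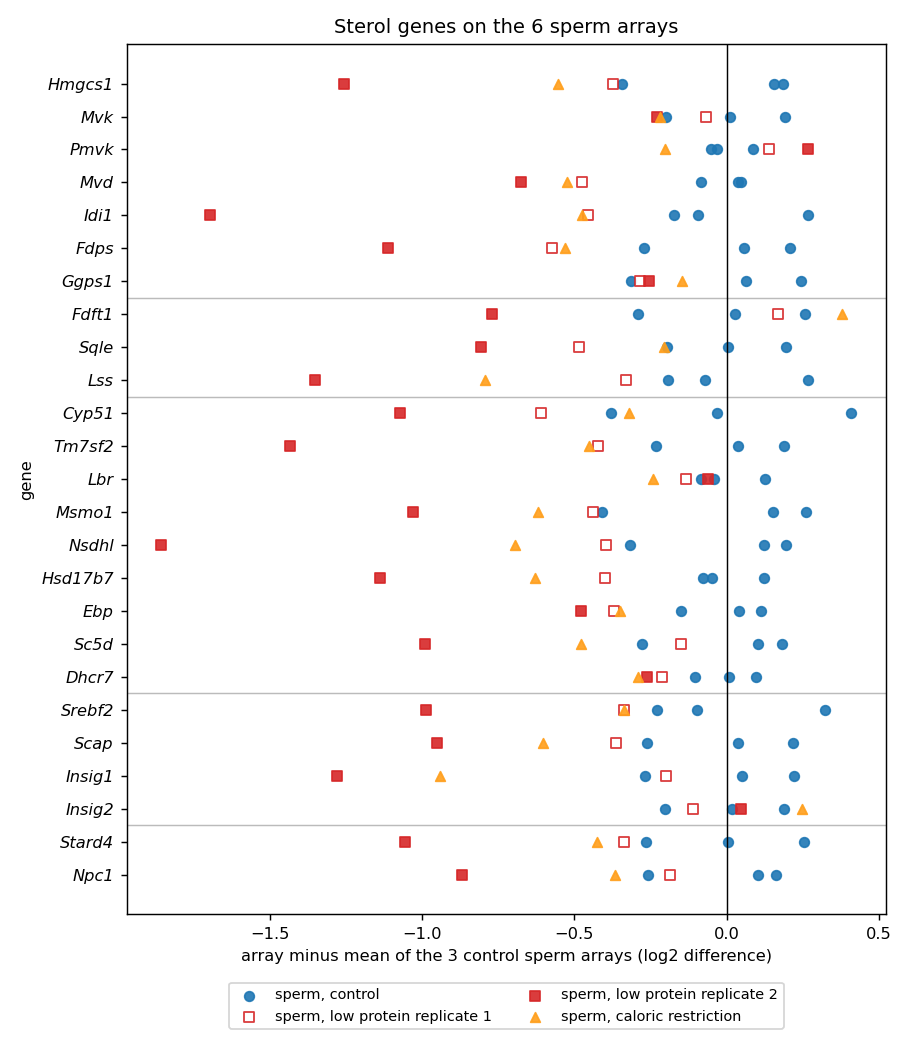
Each of the 6 sperm arrays minus the mean of the 3 control sperm arrays (log2 difference, x axis) for every measured sterol gene, 1 point per array. Blue points are control arrays, the open and filled squares low protein replicates 1 and 2 and the triangle caloric restriction. The filled squares lie leftmost for 20 genes.

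The single caloric restriction array was lower than the control mean for 23 of 25 members, with 2 above, and none was called. The median difference was -0.43, against -0.11 over all genes, of which 62.3% were below 0. Of all tested genes limma called 5.53% higher and 0.0368% lower. This array has no replicate, and its spread is taken from the control and low protein arrays. With either low protein array left out, which gives the same fit here because the spread then comes from the controls alone, 3 members were called lower, against 3.69% of tested genes. It lay below all 3 controls for 21 members (45.8% of tested genes), and 2 members, Insig1 and Mvd, had lower values at an unadjusted p under 0.05 (4.17%). Insig1 differed most, at 8.19 against 8.86 to 9.35 in control sperm, by -0.94 ± 0.39 (adjusted p by limma 0.285). Lss followed at -0.79 ± 0.38 and Nsdhl at -0.70 ± 0.49. Fdft1 at 8.89 and Insig2 at 6.91 lay above all 3 controls, with differences of 0.38 ± 0.37 and 0.25 ± 0.23; 27.3% of tested genes did so. Pmvk, at 6.70, was below all 3 controls here and above them in both low protein arrays.

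With the 3 restricted diet arrays as 1 group, 15 members lay below all 3 controls on every array, against 18.1% of tested genes, and 0 above (15%). These comprised 4 genes of the mevalonate and isoprenoid steps (Hmgcs1, Mvd, Idi1 and Fdps), 2 of the squalene steps (Sqle and Lss), 6 of the late steps (Tm7sf2, Msmo1, Nsdhl, Hsd17b7, Ebp and Dhcr7), the regulator genes Srebf2 and Scap, and Stard4. Without low protein replicate 2, the other 2 restricted arrays lay below all controls for 16 members (26.7% of tested genes). The median difference was -0.56, against -0.07 over all genes, with 23 of 25 below 0 (59.4%). Limma called 0 members (2.72% of tested genes were higher and 0.0294% lower), and 17 had an unadjusted p under 0.05 with lower values (14%). With low protein replicate 1 left out 4 were called lower, against 3.46% of tested genes. Mvd was nearest the threshold at -0.56 ± 0.15 (adjusted p by limma 0.0760), then Fdps at -0.74 ± 0.21 (0.0907) and Hsd17b7 at -0.72 ± 0.20 (0.0911). Hsd17b7 read 6.66, 6.83 and 6.63 in control sperm, 6.31 and 5.57 under low protein and 6.08 under caloric restriction. All 3 restricted arrays were below the control range, by unequal amounts. The low protein, caloric restriction and joint comparisons share the 3 control arrays, so their agreement is not independent.

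Between low protein and caloric restriction sperm limma called 0 members (0% of tested genes), and 0 had an unadjusted p under 0.05, against 7.37% of tested genes lower and 2.31% higher. Under low protein 20 of 25 were lower (52%). The differences ran from -0.68 for Fdft1 to 0.41 for Pmvk. The intervals were wide, as for Insig1 at 0.20 (95% interval -0.76 to 1.16), and do not show that the diets act alike. With low protein replicate 1 left out 4 members were called lower under low protein, against 10.8% of tested genes, with the median at -0.51 in place of -0.14.

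In the same sperm arrays, marker levels of some other cells moved beside the sterol genes, and those of others did not. The summed signal of the 19 tested epithelium markers, in units of 1000 intensities, was 19.3 to 24.7 in control sperm, 16.7 and 7.82 in low protein sperm, 14.9 in caloric restriction sperm and 40.6 and 39.3 in the tissue. For the 15 smooth muscle markers it was 2.75 to 3.22, 2.20 and 1.73, 2.53, and 21.7 and 22.1. For the 13 fibroblast and matrix markers it was 3.88 to 5.51, 3.79 and 3.12, 4.81, and 11.4 and 9.94. For the 14 leukocyte markers it was 1.65 to 2.77, 2.47 and 2.56, 2.92, and 2.43 and 1.74. For the 7 endothelium markers it was 0.468 to 0.518, 0.424 and 0.596, 0.431, and 0.713 and 0.664. For the 29 late spermatid and sperm genes it was 32.6 to 43.7, 51.9 and 64.8, 58.0, and 5.17 and 5.07. That of the 25 sterol genes was 5.15 to 6.68, 4.86 and 3.14, 4.50, and 12.3 and 11.5. Over all tested genes the sum was 2377 to 2540, 2456 and 2353, 2586, and 3023 and 2992, in the same order. Epithelial and sterol sums thus followed 1 order over the groups, lowest in low protein replicate 2, and germ cell sums ran the other way between control and restricted diets. Array values have no true 0, and 15 of the 34 measured epithelium markers lay under the filter on dim genes. The part of these cells in the diet differences of the sterol genes was not tested.

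Fatty acid synthesis genes, which the related factor SREBP-1 controls, moved beside the sterol genes as well. Set against the control mean, the mean of the 19 was at -0.25 and -0.95 in low protein and at -0.38 in caloric restriction sperm, and that of the sterol genes at -0.30, -0.85 and -0.39. Limma called 0 of the 19 under low protein, where 10 had lower and 2 higher values at an unadjusted p under 0.05, against 13.1% and 11.9% of tested genes. Scd2 differed by -1.51 ± 0.36 (adjusted p by limma 0.0880) in that comparison.

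**Figure D5:**
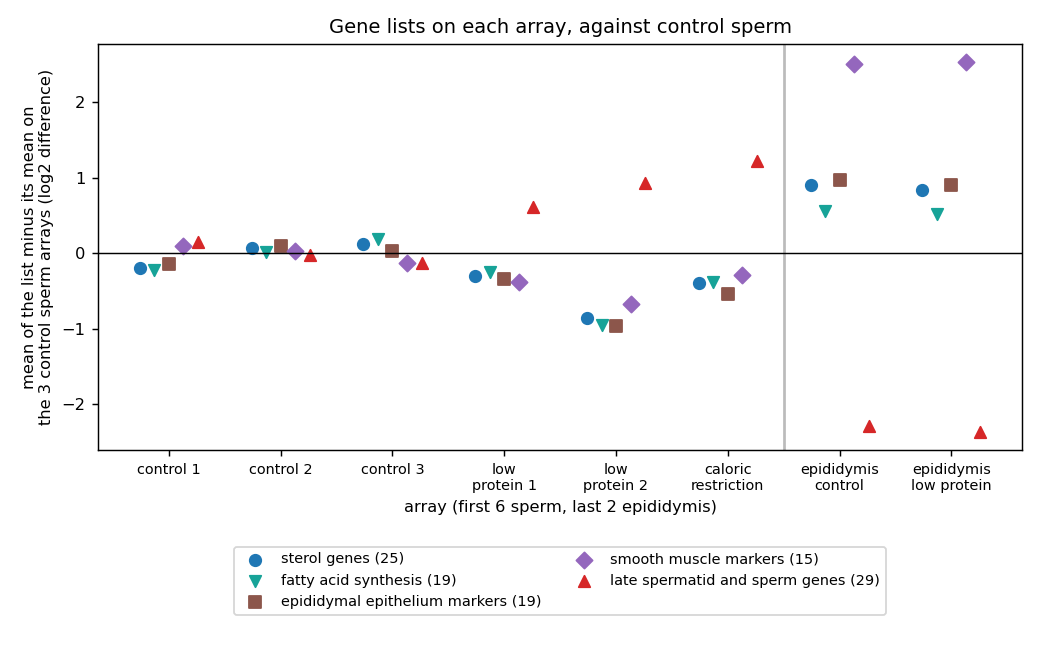
Mean of each gene list on every array minus its mean on the 3 control sperm arrays (log2 difference, y axis); the number of genes is in the legend. Sterol, fatty acid, epithelium and smooth muscle lists are lowest among sperm in low protein replicate 2, and late spermatid genes lie above control sperm in the 3 restricted arrays.

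In epididymal tissue there was 1 array per diet and no test. The low protein array was lower for 16 of 25 members (53.2% of tested genes were lower), with a median difference of -0.11 against -0.01 over all genes. Ebp (-0.38) and Fdft1 (-0.29) were lower by more than 1.2-fold and no member was higher by that much, against 7.88% of tested genes lower and 6.68% higher. Nsdhl read 9.90 and 9.76, and Insig2 7.76 and 7.77. In the same low protein tissue array all 14 leukocyte markers tested were lower, with a median of -0.42, as were 10 of 13 fibroblast and matrix markers, with a median of -0.28. The part of these cells in the tissue values, and in the difference of diet effects that follows, was not tested. The difference between the low protein effects in sperm and in epididymis was tested over the 8 arrays: its median over the members was -0.52, 24 of 25 were below 0 (55.6% of tested genes), and limma called 0 (0% of tested genes, smallest adjusted p of the members 0.875). No member had an unadjusted p under 0.05 there (0.434% of tested genes were lower and 4.06% higher at that p), but with low protein replicate 1 left out 7 were called lower, against 7.87% of tested genes, and the median was -0.86. Fdps had the smallest, with a difference of -0.87 ± 0.42.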

How the data were processed

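The deposited values are log2 intensities of 33660 probe sets on 8 arrays, which the authors made with RMA, as named per the submitters' processing notes. Its version and the genome build: not given in the sources used here. RMA normalizes arrays toward a common distribution, so levels are relative and an overall change of RNA is not seen. The tested genes still did not share 1 total across the arrays, and totals over all probe sets were not compared. The summed signal of all tested genes, in units of 1000 intensities, was 2353 to 2586 in sperm and 3023 and 2992 in epididymis. Of the probe sets, 21222 named 1 gene, 1541 several and 10897 none; 21137 were named through the gene identifier and 85 kept the platform's symbol. A gene was its probe set with the highest mean over all arrays, and the lowest 30% of genes (mean log2 under 5.69, 5824 genes) were left out of tests. Differences were fitted with limma 3.58.1 in R 4.3.3 over all 13587 genes, with Benjamini-Hochberg adjustment over all of them and a threshold of 0.05. The tissue comparison used 8 arrays with tissue and diet as terms, the diet comparisons the 6 sperm arrays, and the difference of diet effects all 8 arrays. The joint comparison took the 3 restricted arrays as 1 group. The fits were tested on simulated arrays with independent noise, none of which stood apart. The differences set there were larger than the diet differences of the sterol genes. The simulation thus does not show how the diet fits do with an array like low protein replicate 2. Since the labels do not say that arrays come from separate animals, p-values reflect no more than the variation among these arrays, possibly technical; an exact permutation test of 3 arrays against 3 cannot go below 0.10. The number of arrays limits the precision.

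All members were named, and of each companion list up to 3 genes with the largest difference between the tissues; members and lists were chosen with earlier results of these data known. Alternatives were other normalizations, filters, probe set rules, variance models, designs and thresholds, and leaving out each array. Promoters came from RefSeq GRCm38.p6.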

Additional observations from a re-analysis of the deposited data

How the results depend on the processing

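Between the tissues, 16 to 21 members were called lower under the other settings and 11 to 21 with 1 array left out, the lowest without low protein epididymis. The count called higher, 1, was 0 after median centring, with tissue alone or with control diet arrays only, and 0 to 1 with 1 array left out. The median over all genes moved from -0.08 to 0.05 after cyclic loess, and that over the members ranged from -1.23 to -0.87. Mvk turned to 0.0237 after quantile normalization, 0.0399 after cyclic loess and 0.0098 in control diet arrays, with -0.30 to 0.0098 on leaving out 1 array; Mvd turned to 0.0546 after cyclic loess. Under low protein, leaving out 1 array gave 0 to 18 members called lower and medians of -0.99 to -0.34. Insig2 turned to 0.0357 after quantile normalization and 0.0424 after cyclic loess (-0.13 to 0.0598 leaving out 1 array), Fdft1 to 0.0496 (-0.77 to 0.17) and Lbr to 0.0539, both after cyclic loess. For the restricted diets, 3 members were called lower at an adjusted p of 0.10 and 0 to 4 with 1 array left out. There Fdft1 turned to 0.22 after cyclic loess and 0.0405 with both diets as groups (-0.30 to 0.28 leaving out 1 array), Pmvk to -0.0019 with both diets as groups (-0.0348 to 0.20) and Insig2 ranged from -0.0395 to 0.15. With 1 array left out, caloric restriction gave 0 to 3 members called lower. Low protein against caloric restriction gave 0 to 4, with medians of -0.51 to 0.0926, and the difference of diet effects 0 to 7, with medians of -0.86 to -0.25. Where a group was left with 1 array, it was assumed to vary like the others. The cause was not tested for any of these. No paired analysis was possible because the labels give no replicate numbers shared between groups. No group has 4 arrays, so single arrays could not be tested as outliers, and array signal near background compresses differences of dim genes.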
